A study of Homo sapiens with 6 samples.

Results

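The genes that fold, import, retrieve and degrade proteins of the endoplasmic reticulum (ER) were examined in Cal33 cells made to overexpress carboxylesterase 2. They were chosen by name as 39 genes in 6 roles, and all 39 were among the 14136 gene entries of the deposited table. Cal33 is an established cell line from a human squamous carcinoma of the mouth. The CES2 group (n = 3 libraries) carried a lentiviral pSin-EF2 construct for FLAG-tagged CES2, and the Vector group (n = 3 libraries) carried the same backbone without an insert. Both groups were infected with virus made in 293FT cells, which derive from human embryonic kidney, and both were kept as stable populations under 0.5 ug/ml puromycin. Libraries are called CES2 1 to 3 and Vector 1 to 3 by their labelled numbers. No label says that the replicates of a group are separate infections or cultures, so the p-values measure only the spread between these libraries, which may be technical.

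Proteins that enter the secretory pathway pass through the SEC61 channel of the ER membrane, fold with the help of chaperones and disulfide isomerases, and are sent back to the cytosol for destruction when folding fails. Unfolded protein in the ER activates membrane sensors, and their transcription factors raise chaperone and degradation genes, a programme called the unfolded protein response. CES2 is itself a soluble esterase of the ER lumen with a KDEL-like retrieval signal at its carboxyl terminus.

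The CES2 transcript was at 2664, 1929 and 2294 TPM in the CES2 libraries, against 45.6, 41.9 and 44.9 TPM in the Vector libraries. TPM is transcript abundance per length, scaled to 1000000 in each library. The log2 fold change, CES2 over Vector on the log2(TPM + 1) scale, was 5.66 ± 0.18 (SE; limma, adjusted p = 7.38e-06), and the two-sided exact permutation test gave p = 0.1, the smallest that 3 against 3 allows. CES2 was the single gene past an adjusted p of 0.05 (0.00819%) among the 12210 tested, which reached 1 TPM in 3 or more libraries. Pairs of libraries correlated on the log2 scale at Pearson r of 0.932 to 0.974 within a group and 0.927 to 0.978 across groups. How deeply each library was sequenced cannot be read from TPM and is unknown. In bulk RNA, fewer cells of a type and less RNA per cell cannot be told apart. The summed level of 10 squamous epithelial markers was 4314 to 5800 TPM in CES2 and 4401 to 5676 TPM in Vector, led by KRT5 and KRT17, while KRT14 lay between 1.14 and 2.97 TPM in all 6 libraries. Of the fibroblast, leukocyte and endothelial lists, 1 of 6, 1 of 6 and 3 of 4 genes were in the deposited table. The absent genes have no value there. COL1A1, the fibroblast gene present, was at 3.90 to 10.5 TPM in CES2 and 4.49 to 9.36 TPM in Vector. CD14, PECAM1 and VWF reached at most 0.695, 0.549 and 1.87 TPM. CDH5, an endothelial cadherin, was at 8.75 to 19.6 TPM in CES2 and 8.25 to 25.3 TPM in Vector.

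None of the 39 ER genes passed the adjusted threshold. In limma every adjusted p among them was 1 after rounding, and 1 gene, SYVN1, had an unadjusted p under 0.05 (2.56% of the ER genes, against 1.09% of all tested genes, or 0.5% lower and 0.59% higher in CES2). Log2 fold changes ran from -0.52 for SSR2 to 0.49 for CANX, with a median of 0.02 beside -0.06 for all tested genes. A log2 fold change above 0 was found in 21 of 39 ER genes (53.8%), against 36.3% of all tested genes. The other 18 were below 0, as were 63.7% of all tested genes. The number above 0 was 26 of 39 after median rescaling, which brought the median of all genes to 0.00 (66.7%, against 50.9% of all tested genes). It was 25 after quantile normalization (64.1%, against 47.2%) and 14 without Vector 2 (35.9%, against 32.8%). For 34 of the 39 genes the 95% interval of the log2 fold change lay within a 2-fold difference in either direction. The same held for 9824 of the 12210 tested genes. The exceptions among the ER genes were SDF2L1, CANX, SEC61G, SSR2 and HERPUD1. The groups did not overlap for 3 ER genes (7.69%, against 3.7% of all tested genes). CRELD2 was the one higher in CES2 (background 1.07%), and SEC63 and SYVN1 were lower in CES2 (background 2.63%).

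**Figure D1:**
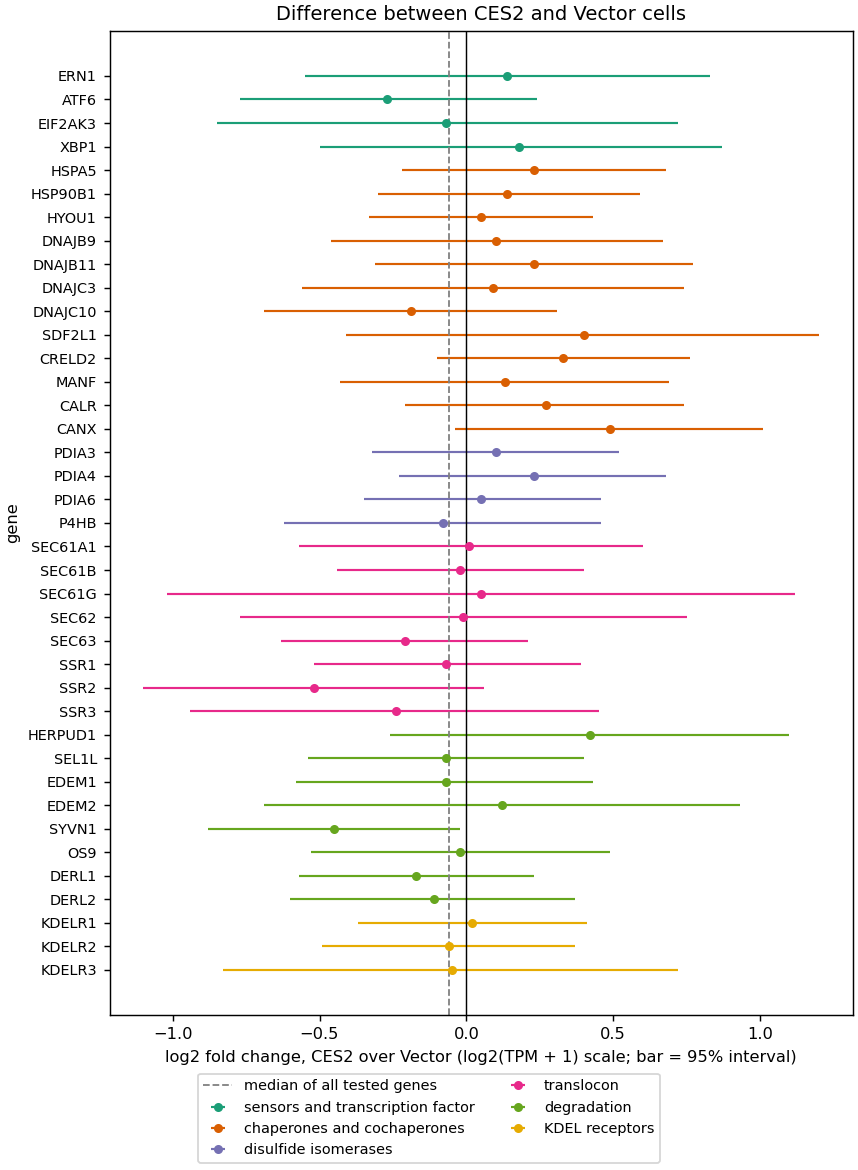
Log2 fold change of CES2 over Vector on the log2(TPM + 1) scale for the 39 ER genes, coloured by role, with the 95% interval of the limma fit as bars and the median of all tested genes (-0.06) as a dashed line. All intervals but that of SYVN1 (-0.88 to -0.02) cross 0.

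The sensors of the unfolded protein response were expressed at low levels and had overlapping groups. ERN1 encodes IRE1, the kinase and ribonuclease that splices XBP1 mRNA. Its level was 12.4, 13.4 and 7.19 TPM in CES2 and 12.5, 9.32 and 7.48 TPM in Vector (log2 fold change 0.14, 95% interval -0.55 to 0.83). The third library of each group was the lowest of its group. ATF6 encodes a membrane-bound transcription factor that is cut free in the Golgi under ER stress. It was at 15.9, 15.0 and 19.5 TPM in CES2 and 19.4, 17.7 and 24.4 TPM in Vector, a log2 fold change of -0.27 (-0.77 to 0.24). CES2 1 and CES2 2 lay below all Vector libraries, and CES2 3 lay among them. EIF2AK3, which encodes PERK, the kinase that slows translation through eIF2alpha, was at 21.7, 19.4 and 10.7 TPM in CES2 and 22.9, 11.5 and 19.8 TPM in Vector. CES2 3 and Vector 2 were the low libraries, and the log2 fold change was -0.07 (-0.85 to 0.72).

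XBP1 encodes the transcription factor that IRE1 activates by splicing its mRNA. The sources do not say which XBP1 transcripts the TPM covers, so the spliced and unspliced forms were not told apart. XBP1 was at 126, 126 and 139 TPM in CES2, against 106, 76.7 and 184 TPM in Vector. The CES2 libraries were close together (130 ± 7.48 TPM, SD, n = 3) and fell within the wide range of the Vector libraries (122 ± 55.6 TPM, SD, n = 3). The log2 fold change of 0.18 had an interval of -0.50 to 0.87.

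Chaperones and cochaperones were the role with most log2 fold changes above 0, in 11 of 12 genes (91.7%, against 36.3% of all tested genes). The median was 0.19, beside -0.06 for all tested genes. None passed, and the groups overlapped in all but CRELD2. The number above 0 was 9 without Vector 1, against 39% of all tested genes, and 8 without Vector 2, against 32.8%. After median rescaling the chaperone median was 0.25, beside 0.00 for all tested genes. After quantile normalization it was 0.17, beside -0.01. The median was 0.10 without CES2 1 or without Vector 2 and 0.32 without Vector 3. Their summed TPM was 4082, 3589 and 3798 in CES2 and 3354, 2831 and 3535 in Vector. Every CES2 sum was above every Vector sum, though the nearest, CES2 2 and Vector 3, were close. The largest mean differences within the sum were those of CALR (1179 TPM in CES2, 993 TPM in Vector) and CANX (568 TPM in CES2, 402 TPM in Vector). HSPA5, which encodes BiP, the ER HSP70 that also holds the sensors inactive, was at 521, 374 and 485 TPM in CES2 and 339, 393 and 442 TPM in Vector. CES2 2 lay within the Vector range, and the log2 fold change was 0.23 ± 0.20 (SE). HSP90B1, the ER HSP90 known as GRP94, was at 937, 791 and 808 TPM in CES2 and 887, 616 and 812 TPM in Vector (log2 fold change 0.14). Vector 2 stood lowest and the other 5 libraries mixed.

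The lectin chaperones CALR and CANX bind the sugar chains of newly made glycoproteins, calreticulin in the lumen and calnexin in the membrane. CALR had the highest mean TPM of the 39 genes (rank 122 of the 12210 tested). It was at 1175, 1286 and 1077 TPM in CES2 and 1013, 772 and 1196 TPM in Vector, with Vector 3 inside the CES2 range (log2 fold change 0.27 ± 0.21, SE). CANX, at chr5:179678628-179708366 on the plus strand (GRCh38), had the largest log2 fold change of all 39 genes, 0.49 ± 0.23 (SE; limma, unadjusted p = 0.0661, 95% interval -0.04 to 1.01). Its rank depended on the fit: HERPUD1 was highest without CES2 1 (0.70), XBP1 without Vector 3 (0.52), and SDF2L1 without CES2 3 (0.83), after quantile normalization (0.49) and with library weights (0.72). It was at 600, 425 and 680 TPM in CES2 and 488, 362 and 356 TPM in Vector, so that Vector 1 exceeded CES2 2 and the groups overlapped. The transcript listed for CANX has 585 bases and that of HSP90B1 581 bases. The sources do not say whether TPM was set on the listed transcript or on all transcripts of the gene. Of the listed CANX exon bases, 25.6% also lie under exons of CBY3 on the other strand.

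Among the smaller chaperone genes, CRELD2, an ER-resident protein induced by ER stress, was the one with groups that did not overlap. It was at 84.1, 84.7 and 95.7 TPM in CES2, all above 58.7, 72.0 and 80.5 TPM in Vector. The difference was 0.33 ± 0.19 on the log2 scale (SE; limma, unadjusted p = 0.115, adjusted p = 1). SDF2L1, which helps BiP and its partner DNAJB11 keep clients soluble, was at 40.0, 39.5 and 15.6 TPM in CES2 and 20.8, 21.0 and 24.4 TPM in Vector. CES2 1 and CES2 2 lay above all Vector libraries while CES2 3 was the lowest of the 6, and the log2 fold change of 0.40 became 0.83 without CES2 3 and 0.18 without CES2 1 or without CES2 2.

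DNAJB11, a lumenal BiP cochaperone, had 288, 197 and 306 TPM in CES2 and 175, 246 and 249 TPM in Vector (log2 fold change 0.23). CES2 2 and Vector 1 were the lowest libraries. MANF, a BiP-binding protein that is secreted under stress, had 180, 152 and 101 TPM in CES2 and 150, 109 and 128 TPM in Vector (log2 fold change 0.13). CES2 libraries were here both the highest and the lowest. HYOU1, the nucleotide exchange factor of BiP, varied least of the 39 genes, at 184, 184 and 159 TPM in CES2 and 158, 183 and 168 TPM in Vector. Its highest library was 1.17 times its lowest, against a median ratio of 1.67 for the 39 genes and 1.79 for all tested genes.

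The remaining cochaperones were low. DNAJC10, a J-domain disulfide reductase that prepares clients for degradation, was the one chaperone gene with a log2 fold change below 0 (-0.19), at 20.6, 15.7 and 15.6 TPM in CES2 and 21.5, 21.2 and 16.8 TPM in Vector. DNAJC3, a BiP cochaperone also known as P58IPK, was at 43.8, 30.4 and 46.9 TPM in CES2 and 32.1, 29.7 and 54.2 TPM in Vector (0.09). DNAJB9, which recruits BiP to IRE1, was at 9.58, 9.18 and 8.18 TPM in CES2 and 10.7, 6.56 and 8.03 TPM in Vector (0.10). The groups overlapped in each of these.

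**Figure D2:**
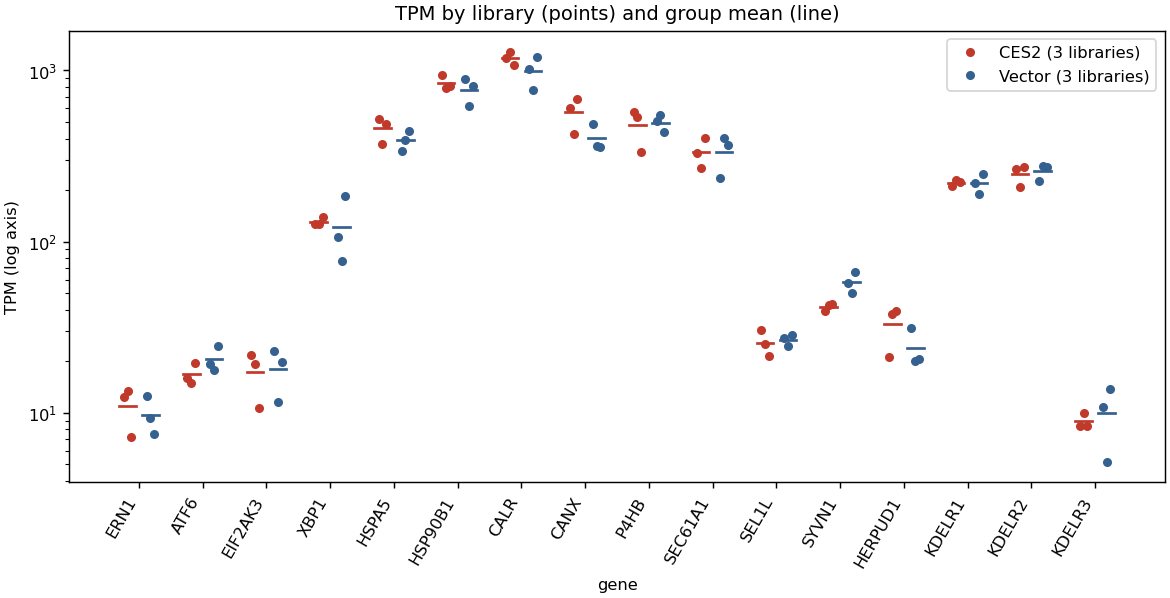
TPM of 16 ER genes on a log axis, with 3 CES2 libraries (red, left) and 3 Vector libraries (blue, right) as points and the group mean as a line. SYVN1 is the gene shown whose CES2 points (39.4 to 43.1 TPM) all lie below its Vector points (50.0 to 66.8 TPM), and levels run from 5.17 TPM for KDELR3 to 1286 TPM for CALR.

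Many chaperone genes carry the ER stress response element (ERSE), which ATF6 binds together with NF-Y, in their promoters. It was searched for as CCAAT, 9 bases of any kind and CCACG, on both strands, in RefSeq promoters (GRCh38.p14), from 250 bases before to 50 after each start. The related ERSE-II was searched as ATTGG, 1 base of any kind and CCACG. Of the 39 genes 36 were matched to a promoter, and PDIA3, DERL1 and KDELR2 were not. The exact ERSE stood in 7 of the 36 (19.4%), against 0.133% of 15843 protein-coding genes. ERSE-II stood in 3 (8.33%), against 0.0947%. The list was chosen by name and holds known carriers of the element. Higher shares than the background were therefore built in and are not a result of these data. Both patterns end in CCACG and hold CCAAT or its reverse complement ATTGG, and they matched different genes here. The upstream stretch of HSPA5 is shown because BiP is the usual reporter of this response, with the exact match in capitals.
HSPA5 (chr9:125241344-125241593, minus strand): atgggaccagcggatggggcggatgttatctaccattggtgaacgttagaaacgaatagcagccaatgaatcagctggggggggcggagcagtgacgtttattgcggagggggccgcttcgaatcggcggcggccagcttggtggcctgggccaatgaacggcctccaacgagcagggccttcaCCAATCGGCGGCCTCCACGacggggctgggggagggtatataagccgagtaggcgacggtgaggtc

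The other exact ERSE matches are shown to let the fixed ends and the free middle be compared between genes, with the match in capitals and 10 bases on each side. A match that reads CGTGG at its left end lies on the strand opposite to the gene. The HSP90B1 promoter holds a pair of them. The matches of CANX, CRELD2 and HSP90B1 belong to other RefSeq starts than those of the listed transcripts. They lie downstream of the listed starts, which are at 179678628, 49918167 and 103930107.
CALR (chr19:12938374-12938412, plus strand): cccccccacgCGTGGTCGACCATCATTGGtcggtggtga
CANX (chr5:179698768-179698806, plus strand): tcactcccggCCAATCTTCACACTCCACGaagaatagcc
CRELD2 (chr22:49918544-49918582, plus strand): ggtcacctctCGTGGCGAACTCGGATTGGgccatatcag
HSP90B1 (chr12:103930206-103930244, plus strand): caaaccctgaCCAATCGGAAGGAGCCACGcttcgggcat
HSP90B1 (chr12:103930311-103930349, plus strand): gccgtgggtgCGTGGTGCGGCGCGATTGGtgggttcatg
PDIA6 (chr2:10812843-10812881, minus strand): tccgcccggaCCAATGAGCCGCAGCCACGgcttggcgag
XBP1 (chr22:28800593-28800631, minus strand): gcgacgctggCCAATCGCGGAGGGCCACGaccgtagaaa

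The ERSE-II matches, in capitals, are shown because they mark the remaining chaperone and degradation genes with such an element. HYOU1 holds a pair.
HERPUD1 (chr16:56932015-56932045, plus strand): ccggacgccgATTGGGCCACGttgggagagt
HYOU1 (chr11:119057264-119057294, minus strand): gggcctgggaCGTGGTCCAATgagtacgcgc
HYOU1 (chr11:119057370-119057400, minus strand): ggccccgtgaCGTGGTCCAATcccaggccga
SDF2L1 (chr22:21642104-21642134, plus strand): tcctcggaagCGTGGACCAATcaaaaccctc

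All 7 genes with the exact ERSE (CALR, CANX, CRELD2, HSP90B1, HSPA5, PDIA6 and XBP1) had log2 fold changes above 0, from 0.05 to 0.49 with a median of 0.23, and none passed the test. This count was 6 without CES2 1, 4 without Vector 2 and 6 with library weights, beside 36.5%, 32.8% and 37.6% of all tested genes. The 3 genes with ERSE-II (HERPUD1, HYOU1 and SDF2L1) were at 0.42, 0.05 and 0.40. Of the 26 genes with neither pattern, 10 were above 0, with a median of -0.04. Most genes with an element are chaperones, so element and role cannot be told apart here. The chaperones with neither pattern were DNAJB11 (0.23), MANF (0.13), DNAJB9 (0.10), DNAJC3 (0.09) and DNAJC10 (-0.19). Among the 9 other tested protein-coding genes whose promoter held the exact ERSE, 4 were above 0, with a median of -0.00. For ERSE-II this was 4 of 11 other genes, with a median of -0.07, beside 36.3% above 0 among all tested genes. These are descriptions of letters in a fixed window and of small differences, and no test was made of them.

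**Figure D3:**
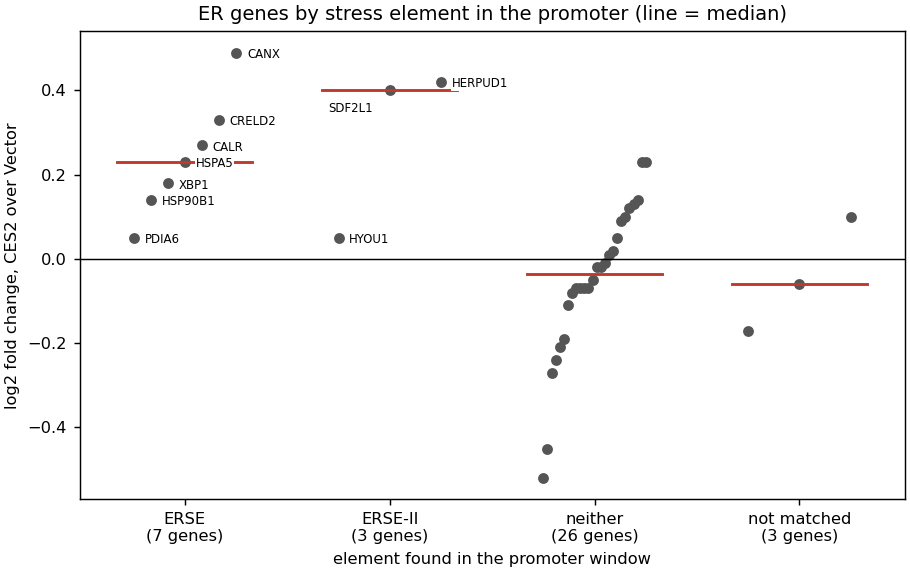
Log2 fold change of CES2 over Vector for the 39 ER genes, grouped by whether the promoter window held the exact ERSE (7), ERSE-II (3) or neither (26), with 3 genes not matched to a promoter and the median of each group as a line. All 10 genes with an element lie above 0, and so do 10 of the 26 with neither. Most genes with an element are chaperones.

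The disulfide isomerases form and rearrange disulfide bonds. Log2 fold changes were small, with P4HB the one below 0 and the median at 0.08. PDIA4 was at 299, 286 and 232 TPM in CES2 and 253, 188 and 260 TPM in Vector (log2 fold change 0.23). PDIA3, which works with calnexin and calreticulin on glycoproteins, was at 421, 402 and 344 TPM in CES2 and 380, 305 and 407 TPM in Vector (0.10). Vector 2 was the lowest library in both. PDIA6 was at 521, 467 and 403 TPM in CES2 and 481, 401 and 455 TPM in Vector (0.05), and 44.2% of its listed exon bases also lie under exons of ATP6V1C2 on the other strand. P4HB, the founding member of the family and a subunit of prolyl 4-hydroxylase, was at 574, 535 and 335 TPM in CES2 and 508, 546 and 435 TPM in Vector (-0.08). The low value of CES2 3 set its sign, since without that library the log2 fold change was 0.16. In all 4 isomerases CES2 3 was the lowest CES2 library.

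The translocon genes included the most variable member and a subunit with a low mean in CES2. The SEC61 channel is made of SEC61A1, its pore, with SEC61B and SEC61G. SEC61A1 was at 329, 268 and 405 TPM in CES2 and 234, 403 and 367 TPM in Vector, and SEC61B at 267, 257 and 305 TPM in CES2 and 234, 314 and 299 TPM in Vector. Log2 fold changes were 0.01 and -0.02, and the groups covered nearly the same range in both genes. SEC61G had the widest spread of the 39 genes, at 342, 370 and 115 TPM in CES2 and 247, 345 and 153 TPM in Vector, a ratio of 3.21 between the highest and the lowest library. The third library of each group was low, and the log2 fold change of 0.05 had an interval of -1.02 to 1.12. SEC61G has the shortest listed transcript of the 39 genes, at 459 bases.

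SEC62 and SEC63 help short and slowly inserted proteins through the channel, SEC63 by recruiting BiP. SEC63 was at 52.3, 41.1 and 51.3 TPM in CES2, all below 55.7, 53.0 and 57.9 TPM in Vector, although the margin between the nearest libraries was under 1 TPM and the log2 fold change of -0.21 did not pass (limma, unadjusted p = 0.288). SEC62 was at 101, 64.4 and 157 TPM in CES2 and 79.8, 97.6 and 133 TPM in Vector (-0.01). It was highest in the third library of each group, the reverse of SEC61G.

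SSR1, SSR2 and SSR3 encode subunits of the translocon-associated protein complex, which assists certain signal sequences. SSR2 had the lowest log2 fold change of the 39 genes, -0.52 ± 0.25 (SE; limma, unadjusted p = 0.0723), at 106, 126 and 137 TPM in CES2 and 129, 171 and 246 TPM in Vector. Vector 1 lay within the CES2 range, and the value was -0.28 without Vector 3. SYVN1 was the lowest in its place without Vector 2 (-0.55) and without Vector 3 (-0.35). SSR3 was at 162, 119 and 262 TPM in CES2 and 157, 222 and 241 TPM in Vector (-0.24), and SSR1 at 42.1, 43.4 and 36.1 TPM in CES2 and 50.0, 41.9 and 36.1 TPM in Vector (-0.07). Groups overlapped in both. In all, 6 of the 8 translocon genes were below 0 with a median of -0.04, near the 63.7% and the median of -0.06 of all tested genes. That median was -0.14 without CES2 1, -0.19 without CES2 3 or without Vector 1, -0.15 without Vector 3, -0.09 with library weights and 0.02 after median rescaling.

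Of the 8 degradation genes 6 were below 0, with a median of -0.07, near the 63.7% and the median of -0.06 of all tested genes. SYVN1 encodes HRD1, the ubiquitin ligase through which misfolded ER proteins leave for the proteasome. It was at 39.4, 42.8 and 43.1 TPM in CES2, each below 57.0, 50.0 and 66.8 TPM in Vector. Means were 41.8 ± 2.06 TPM in CES2 and 57.9 ± 8.43 TPM in Vector (SD, n = 3 each). The log2 fold change was -0.45 ± 0.19 (SE). In limma its unadjusted p of 0.0407 was the smallest of the ER genes, and its adjusted p was 1. The gene lies at chr11:65127279-65134532 on the minus strand (GRCh38). SEL1L, the partner that anchors and stabilises HRD1, was at 30.4, 25.2 and 21.6 TPM in CES2 and 27.2, 24.7 and 28.4 TPM in Vector (-0.07), with overlapping groups.

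HERPUD1, a stress-induced scaffold of the HRD1 complex, had a log2 fold change of the opposite sign to SYVN1, 0.42 ± 0.30 (SE). It was at 21.2, 37.9 and 39.4 TPM in CES2 and 31.1, 20.0 and 20.7 TPM in Vector. CES2 2 and CES2 3 exceeded all Vector libraries, CES2 1 lay among the low ones, and the value was 0.70 without CES2 1, 0.27 without CES2 3 and 0.02 with library weights. EDEM1 and EDEM2 trim mannose from misfolded glycoproteins. EDEM1 was at 48.6, 38.4 and 31.2 TPM in CES2 and 40.1, 36.4 and 46.6 TPM in Vector (-0.07). EDEM2 was at 46.5, 61.2 and 32.4 TPM in CES2 and 61.6, 25.2 and 45.8 TPM in Vector (0.12). Both spread more within groups than between them, and the transcript listed for EDEM1 is annotated as a target of nonsense-mediated decay in GENCODE release 29.

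OS9, a lectin that hands trimmed glycoproteins to SEL1L, was at 169, 222 and 132 TPM in CES2 and 197, 159 and 167 TPM in Vector (-0.02). DERL1, a derlin that thins the membrane for exit, was at 84.5, 76.4 and 76.6 TPM in CES2 and 78.5, 91.1 and 98.9 TPM in Vector (-0.17). DERL2, the other derlin listed, was at 27.2, 19.9 and 26.0 TPM in CES2 and 24.3, 24.6 and 30.2 TPM in Vector (-0.11). CES2 and Vector libraries overlapped in these 3 genes.

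The KDEL receptors return escaped ER residents from the Golgi. KDELR1 was at 210, 230 and 223 TPM in CES2 and 219, 191 and 247 TPM in Vector (log2 fold change 0.02), and KDELR2 was at 264, 208 and 274 TPM in CES2 and 225, 277 and 273 TPM in Vector (-0.06). The groups overlapped in both, with 95% intervals of -0.37 to 0.41 and -0.49 to 0.37. KDELR3 was far lower, at 8.42, 9.98 and 8.32 TPM in CES2 and 10.8, 5.17 and 13.8 TPM in Vector (-0.05). Its CES2 libraries were close together and lay between the extremes of the Vector libraries.

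**Figure D4:**
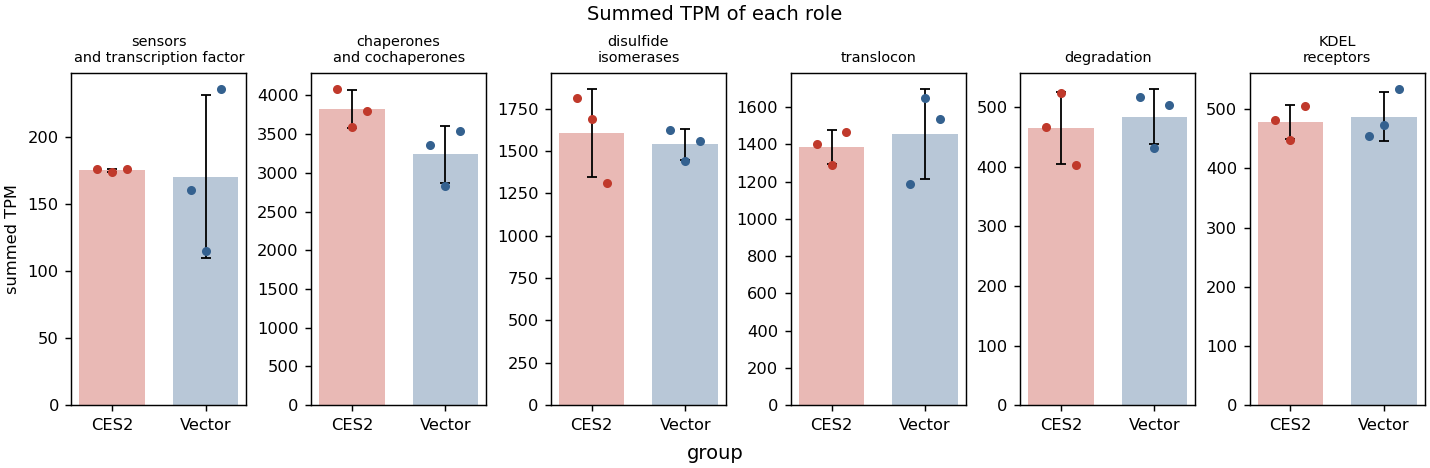
Summed TPM of the genes of each role, with each library as a point, the group mean as a bar from 0 and the SD as an error bar (n = 3 CES2 libraries, left, and 3 Vector libraries, right; each panel has its own axis). The chaperone sums are 3589 to 4082 TPM in CES2 and 2831 to 3535 TPM in Vector, and the groups overlap in the other 5 panels.

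Together the 39 genes made up 8422, 7715 and 7664 TPM in CES2 and 7296, 6938 and 7901 TPM in Vector. Means were 7934 ± 424 TPM in CES2 and 7378 ± 486 TPM in Vector (SD, n = 3 each), or 0.793% and 0.738% of the total, and the groups overlapped because Vector 3 exceeded CES2 2 and CES2 3. The difference of 555 TPM lay mostly in the chaperones (583 TPM), with 66.2 TPM in the disulfide isomerases and -70.0 TPM in the translocon. No test was made of these sums.

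The libraries differed from one another across the ER genes in a way that cut across the groups. CES2 1 was above the gene mean in 30 of the 39 genes and in all 12 chaperones, and Vector 2 was above it in 14 genes and in 3 chaperones. Over the 12210 tested genes CES2 1 was above the mean in 6078 and Vector 2 in 4741. Vector 3 was the highest library for 10 ER genes, as was CES2 1, whereas Vector 2 was the lowest for 12 and CES2 3 for 11. Translocon genes had a median deviation of -0.25 in CES2 2 and -0.22 in Vector 1 on the log2 scale, both low, and of 0.20 in Vector 2. Disulfide isomerases had medians of 0.23, 0.13 and -0.14 in the CES2 libraries and 0.05, -0.24 and 0.03 in the Vector libraries. Over all tested genes the median deviation was -0.00, -0.02 and -0.05 in CES2 and 0.04, -0.09 and 0.14 in Vector, so Vector 2 was also low and Vector 3 high across the transcriptome. The part of these library differences in the values of single genes was not tested.

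**Figure D5:**
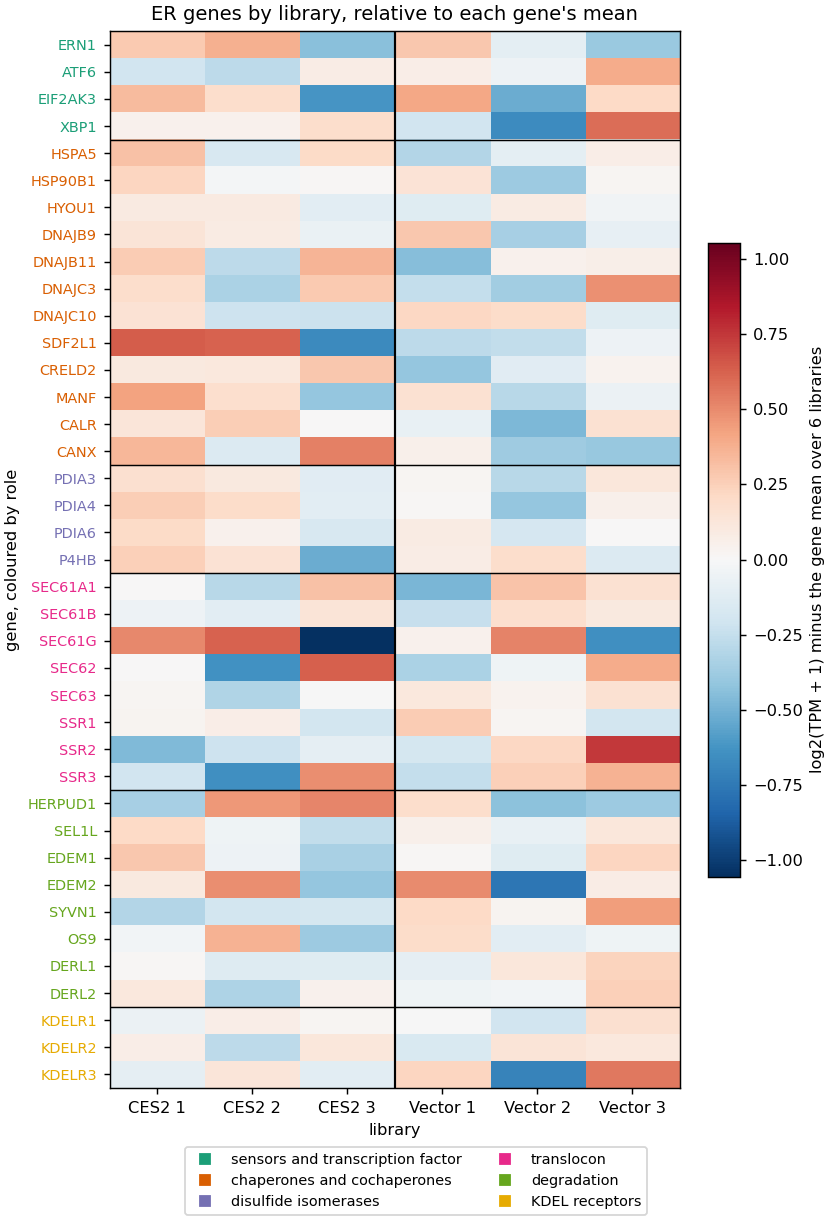
Each ER gene in each library as log2(TPM + 1) minus the mean of that gene over the 6 libraries (red above, blue below), with CES2 libraries left and Vector libraries right of the thick line and genes ordered by role. CES2 1 is above the mean in all 12 chaperones, and SEC61G is low in CES2 3 and Vector 3.

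Spearman rho of the log2 fold change over the 39 genes was 0.32 with GC content and -0.34 with length of the listed transcript, against 0.30 and -0.19 over the tested genes. The points share the same 6 libraries, and their part in the differences was not tested. Exons of 20 of the 39 genes overlap another annotated gene, on the other strand in 19 and on the same strand in 2, and the handling of strand in counting is not given in the sources used here.

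Other genes of the same pathway were read from 6 further lists of 104 genes, of which 100 were tested. None passed in limma, 0 had an unadjusted p under 0.05 (background 1.09%), and 43 of 100 were above 0 with a median of -0.02, beside 36.3% and -0.06 for all tested genes. Groups did not overlap in 4 genes higher in CES2 (background 1.07%) and in 1 lower (2.63%). The higher ones were PPIB, OST4, SRP14 and TRAF2, and the lower one was PPP1R15B. In oxidative folding and prolyl isomerisation 9 of 18 were above 0 (median 0.00). The prolyl isomerases PPIB and FKBP2 had the smallest p, with log2 fold changes of 0.19 and 0.24. PPIB was at 815, 874 and 832 TPM in CES2, all above 721, 719 and 768 TPM in Vector.

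In glycoprotein quality control 3 of 11 were above 0 (median -0.01), and MOGS, a glucosidase, and SIL1, an exchange factor of BiP, were at -0.21 and -0.15. For the oligosaccharyltransferase, which attaches sugar chains, 8 of 12 were above 0 (median 0.03), with the subunits MAGT1 at -0.38 and OSTC at -0.27. MAGT1 was at 129, 90.2 and 49.8 TPM in CES2 and 100, 110 and 116 TPM in Vector, and its value was -0.01 without CES2 3 and -0.69 without CES2 1. OSTC was at -0.09 without CES2 2. In signal recognition and signal peptidase 6 of 18 were above 0 (median -0.03), with SRP9, a subunit of the signal recognition particle, at -0.38 and SPCS1, a signal peptidase subunit, at -0.81 ± 0.58 (SE). SPCS1 was at 187, 154 and 32.1 TPM in CES2 and 143, 189 and 191 TPM in Vector, and without CES2 3 its value was -0.03.

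Of the remaining degradation machinery 11 of 24 tested genes were above 0 (median -0.02), with SELENOK, an ER selenoprotein, at 0.39 and UBXN6, a cofactor of the VCP ATPase, at 0.32. Among signalling genes and effectors of the unfolded protein response 6 of 17 tested were above 0 (median -0.06). PPP1R15B, the constitutive eIF2alpha phosphatase subunit, was at -0.31, and TRAF2, an adaptor of IRE1, was at 0.21. PPP1R15B was at 34.2, 27.8 and 37.0 TPM in CES2, each below 37.5, 42.7 and 42.4 TPM in Vector, and did not pass (limma, unadjusted p = 0.152). TRAF2 was at 106, 102 and 110 TPM in CES2, each above 79.7, 96.0 and 101 TPM in Vector, and did not pass (limma, unadjusted p = 0.256). The PERK-branch factors ATF4 and DDIT3, named after their values were seen, were at -0.12 and 0.20, with 444, 462 and 440 TPM of ATF4 in CES2 and 585, 485 and 411 TPM in Vector.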

How the data were processed

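Each of 6 Cal33 libraries was represented by a column of TPM (transcript abundance scaled to a fixed library total) in a single table deposited by the authors. The unit was inferred from the deposited values, whose columns sum to between 999804 and 999893 TPM. Tools named in the submitters' processing notes are HISAT2 2.1.0, StringTie 1.3.3 and edgeR 3.0.8, with builds hg38 and GRCh38 and no role for each. Annotation, filters and strand handling: not given in the sources used here. Blank cells (73 to 279 per library) were read as 0. Symbols turned into dates (20) were restored from gene identifiers.

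The 12210 genes that reached 1 TPM in 3 or more libraries were fitted as log2(TPM + 1) in limma (3.58.1, under R 4.3.3), using an intensity trend, empirical Bayes moderation and group as the only term, and p-values were Benjamini-Hochberg adjusted over all of them at 0.05. The log2(TPM + 1) scale understates changes of low genes. All 39 ER genes passed the filter. The members and lists were chosen with earlier results of these data known, so no list was tested. Values are given per library for the 16 central genes, for those with the 3 largest and 3 smallest fold changes of each role, for the 5 smallest p-values and for non-overlapping groups, and here for all 39. The 2 genes of smallest p are named from each further list. The fit was tested on simulated data with noise drawn independently for each gene and library. Library differences shared across genes were not part of that test. Promoters are RefSeq sequences of GRCh38.p14, and transcript types are from GENCODE release 29. Plots and summaries used Python 3.11.15, pandas 2.3.3, scipy 1.17.1 and matplotlib 3.10.9. Alternatives were each library left out, a replicate block, rescaling, filters, pseudocounts, no trend and library weights.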

Additional observations from a re-analysis of the deposited data

How the results depend on the processing

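None of the 39 ER genes and none of the further pathway genes passed the adjusted threshold of limma in any of the 15 alternatives, and CES2 passed in all of them (log2 fold change 5.54 to 5.78 with a library left out). The number of genes past the threshold over all genes was 1 to 2 with a library left out and 4 with library weights, a fit that stopped before its weights converged. In that fit CES2 1 had a weight of 6.86 and the other libraries 0.513 to 1.12, so the CES2 side rested mostly on CES2 1. The ER genes at an unadjusted p under 0.05 numbered 1 to 2 with a library left out, 0 without the intensity trend and 4 with library weights. Over all 12210 tested genes the numbers were 90 to 256, 144 and 621 in the same fits, against 133 in the main fit. Directions of small differences were not stable: 13 of the 39 genes kept their sign in every alternative and 26 did not. Medians and counts by role and by promoter element were added to these alternatives after the data were seen. The median log2 fold change of the 39 genes ranged from -0.03 to 0.12 with a library left out, and the difference in summed TPM from 311 to 817, while median rescaling gave 899. The causes were not tested.

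With a library left out the sign also turned for ERN1 (-0.02 to 0.39), EIF2AK3 (-0.35 to 0.23), XBP1 (-0.10 to 0.52), HSP90B1 (-0.01 to 0.25), HYOU1 (-0.00 to 0.12), DNAJB9 (-0.05 to 0.27), DNAJC3 (-0.07 to 0.35), MANF (-0.05 to 0.36), PDIA3 (-0.02 to 0.19), PDIA6 (-0.03 to 0.15), P4HB (-0.22 to 0.16), SEC61A1 (-0.22 to 0.17), SEC61B (-0.15 to 0.06), SEC61G (-0.26 to 0.59), SEC62 (-0.32 to 0.31), SSR1 (-0.18 to 0.05), SSR3 (-0.55 to 0.02), SEL1L (-0.19 to 0.05), EDEM1 (-0.23 to 0.08), EDEM2 (-0.23 to 0.40), OS9 (-0.21 to 0.16), DERL2 (-0.20 to 0.02), KDELR1 (-0.07 to 0.11), KDELR2 (-0.16 to 0.06), KDELR3 (-0.42 to 0.21) and SIL1 (-0.27 to 0.01). Ranges were also wide for genes that kept their sign: HSPA5 (0.13 to 0.37), DNAJB11 (0.07 to 0.43), CALR (0.10 to 0.41), PDIA4 (0.08 to 0.34), CRELD2 (0.21 to 0.43), CANX (0.34 to 0.68), SDF2L1 (0.18 to 0.83), HERPUD1 (0.27 to 0.70), ATF6 (-0.37 to -0.14), DNAJC10 (-0.32 to -0.13), SEC63 (-0.27 to -0.10), SSR2 (-0.74 to -0.28), SYVN1 (-0.55 to -0.35), DERL1 (-0.26 to -0.10), MOGS (-0.46 to -0.09), OSTC (-0.49 to -0.09), SRP9 (-0.54 to -0.15), SELENOK (0.13 to 0.67) and UBXN6 (0.07 to 0.61). The sign turned for the medians of sensors (-0.22 to 0.18), isomerases (-0.01 to 0.18), degradation genes (-0.19 to 0.06) and KDEL receptors (-0.07 to 0.11). Median rescaling turned SEC61B (0.04), SEC62 (0.06), OS9 (0.04), KDELR2 (0.00), KDELR3 (0.01) and the medians of translocon genes (0.02) and KDEL receptors (0.01). Quantile normalization turned EIF2AK3 (0.01), SEC61A1 (-0.03), SEC62 (0.01), SSR1 (0.00), SEL1L (0.00), KDELR3 (0.01) and the KDEL receptor median (0.01). Library weights turned EIF2AK3 (0.17), XBP1 (-0.03), DNAJC10 (0.05), P4HB (0.20), SEC61A1 (-0.02), SSR1 (0.03), SEL1L (0.10), EDEM1 (0.13), KDELR1 (-0.08), MOGS (0.28), MAGT1 (0.09), OSTC (0.02) and the degradation median (0.00).

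Same-numbered libraries did not deviate together in every pair (r = 0.145, -0.524 and 0.375), so the numbers were not read as pairs. With the replicate block, CES2 kept a log2 fold change of 5.66, 1 gene passed over all genes, 0 ER genes and 0 further pathway genes passed, and the median over the 39 genes was 0.02. The largest correlation was between CES2 2 and Vector 1 (r = 0.682), across the groups and across the numbers.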
